A study of Mus musculus with 4 samples.

Results

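Prss23 and 9 other genes, 8 for proteases that are secreted or act at the cell surface and 1 for a protease receptor, were followed across 4 arrays: the trypsin-like homologue Prss35, the HtrA proteases Htra1 and Htra3, the plasminogen activators Plau and Plat with the receptor Plaur, the membrane peptidase Fap, and the proprotein convertases Furin and Pcsk5. They were listed by function, and the group was chosen by the measured difference of Prss23 between Smarcb1 and empty vector on these same arrays. They stand among 19938 genes with a probe set of their own. Each of the 10 genes has 1 probe set. Of them 9 were among the 13956 genes tested, and Fap lay below the limit on mean signal (log2 4.27, the 30th percentile of gene means).

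The arrays came from mouse soft tissue tumour lines 365 and 167. Both arose from Smarcb1-deficient tumours of p53-null mice heterozygous for Smarcb1, on a C57BL6/SV129J background. The 4 arrays, 1 for each combination, held line 365 with the pMIG retrovirus carrying Smarcb1, line 365 with the empty virus, line 167 with Smarcb1 and line 167 with the empty virus, all sampled 3 days after infection. Per the labels, loss of p53 and Smarcb1 deficiency are common to all of them, Smarcb1 is supplied from a virus, each line stands for 1 tumour, and no repeat culture is named in the labels. The submitters chose the early time point to favour genes that Smarcb1 controls directly.

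Serine proteases cut proteins with an activated serine side chain, and their secreted and membrane-bound members remodel the matrix and release growth factors. The plasminogen activators uPA (Plau) and tPA (Plat) convert plasminogen to plasmin, which digests fibrin and matrix proteins, and the uPA receptor (Plaur) concentrates that activity on the cell surface. HtrA proteases degrade matrix proteins such as fibronectin, and the furin-like convertases cut precursors of growth factors, receptors and metalloproteinases into their active forms. The Smarcb1 protein belongs to the core of SWI/SNF, a complex that moves nucleosomes and opens enhancers and promoters.

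The arrays had median log2 signals between 5.03 and 5.07. Across tested genes, which are not independent replicates, arrays of the same line correlated at r = 0.970 (line 365) and 0.959 (line 167). Smarcb1 itself had a log2 signal of 9.61 with Smarcb1 and 6.01 with empty vector in line 365, and of 7.83 and 4.61 in line 167, in the direction of the labels. Smarcb1 signal lay above the limit on both empty-vector arrays and was 2.64-fold higher in line 365 than in line 167 there. On the arrays with Smarcb1 it was 3.43-fold higher in line 365, so the lines did not carry the same Smarcb1 signal. The Smarcb1 line difference passed limma's test (adjusted p = 0.0177). All 10 mesenchymal markers had signal above the limit on each array, as did 3 of 7 leukocyte markers, 6 of 7 epithelial markers and 1 or 2 of 8 mast cell and neutrophil markers. The epithelial adhesion gene Epcam and the leukocyte genes Ptprc, Itgam and Adgre1 were below the limit on each array, and Cd68 had log2 signals of 8.18 to 9.95.

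The promoter windows shown here run from 250 bases before to 50 bases after a transcription start and were taken from RefSeq (GRCm38.p6), 5′ to 3′ on the strand of the gene. Windows were at hand for 7 of the 10 genes, 14 windows in all, 7 of them for Prss23. Prss23 windows are shown because Prss23 had the largest difference of the group in both lines, and the Plaur window because Plaur was the gene lower with Smarcb1 by the largest amount in both lines. In the first Prss23 sequence and in the Plaur sequence the capitals mark the AP-1 letters TGANTCA, and in the other Prss23 sequence the GC box letters GGGCGG, all searched on both strands.
Prss23, chr7:89518155-89518454, minus strand: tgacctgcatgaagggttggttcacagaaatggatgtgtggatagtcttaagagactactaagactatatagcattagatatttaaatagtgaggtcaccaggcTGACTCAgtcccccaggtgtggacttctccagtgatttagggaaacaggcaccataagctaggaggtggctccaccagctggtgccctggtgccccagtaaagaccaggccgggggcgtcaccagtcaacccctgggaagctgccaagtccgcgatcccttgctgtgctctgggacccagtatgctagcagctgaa
Prss23, chr7:89517537-89517836, minus strand: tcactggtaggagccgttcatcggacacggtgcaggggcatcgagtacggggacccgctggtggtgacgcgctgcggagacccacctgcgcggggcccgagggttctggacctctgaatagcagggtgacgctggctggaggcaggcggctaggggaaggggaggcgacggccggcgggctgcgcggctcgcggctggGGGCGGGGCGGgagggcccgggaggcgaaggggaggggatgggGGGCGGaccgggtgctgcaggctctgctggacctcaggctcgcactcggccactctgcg
Plaur, chr7:24462233-24462532, plus strand: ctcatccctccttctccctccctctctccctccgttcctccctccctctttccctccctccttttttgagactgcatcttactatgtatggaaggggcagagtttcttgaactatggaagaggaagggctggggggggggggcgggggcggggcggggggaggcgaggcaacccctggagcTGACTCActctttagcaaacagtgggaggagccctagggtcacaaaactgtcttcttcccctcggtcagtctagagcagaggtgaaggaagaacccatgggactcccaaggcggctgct

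The AP-1 letters began 146 bases before the start in that Prss23 window and 69 bases before it in the Plaur window. They were found in 3 of the 14 windows, from 2 genes. The 2 Prss23 windows that hold them overlap and share the same copy. Over all 32851 mouse windows of this length, 7.81% hold these letters. The GC box letters stood in 9 of the 14 windows, from 6 genes, against 35.7% of all windows. Of these 9 windows 4 are of Prss23, and 3 of those overlap and share the same copies, so the count of windows holds the same letters several times. The TATA box letters TATAAA were in 1 window, of Furin, against 13.6% of all, and the TEAD letters GGAATG in 0 of the 14 against 14.7% of all. Letters of different motifs do not overlap each other in the 3 windows shown. Neighbouring copies of the GC box letters share a base in the marked Prss23 window and in the Plaur window. Letters in these windows are a description and no evidence of binding. G and C made up 49.7% to 78.3% of the bases across the Prss23 windows.

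Prss23 was higher with Smarcb1 in both lines and reached nearly the same signal in each. The gene encodes a secreted trypsin-like protease. Its log2 signal was 7.98 with Smarcb1 and 4.54 with empty vector in line 365, and 8.02 with Smarcb1 and 4.69 with empty vector in line 167. The lines differed (365 minus 167) by log2 -0.03 with Smarcb1 and -0.14 with empty vector. The log2 difference, Smarcb1 minus empty vector, was 3.44 in line 365 and 3.33 in line 167, or 10.9-fold and 10.1-fold, with a mean of 3.39 ± 0.08 (SD over the 2 lines). Among tested genes this difference stood at rank 16 in line 365 and rank 44 in line 167, counted from the largest. Both empty-vector signals of Prss23 lay close to the limit on mean signal, so the size of its difference is uncertain.

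This contrast chose Prss23, so its size is a description. A limma fit with a term for the line and a term for the vector called 1 of the 9 tested genes of the group, Prss23, as higher, against 0.0645% of all tested genes, and 0 as lower, as it did over all tested genes. Over the alternative settings the number of genes called in either direction ran between 0 and 101, and with the cell line dropped from the model the call of Prss23 ended (limma adjusted p = 0.451). Nothing is read from these counts. The response of a single line rests on 1 array for each vector, so it carries no test, and neither does a difference between the responses of the lines.

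**Figure D1:**
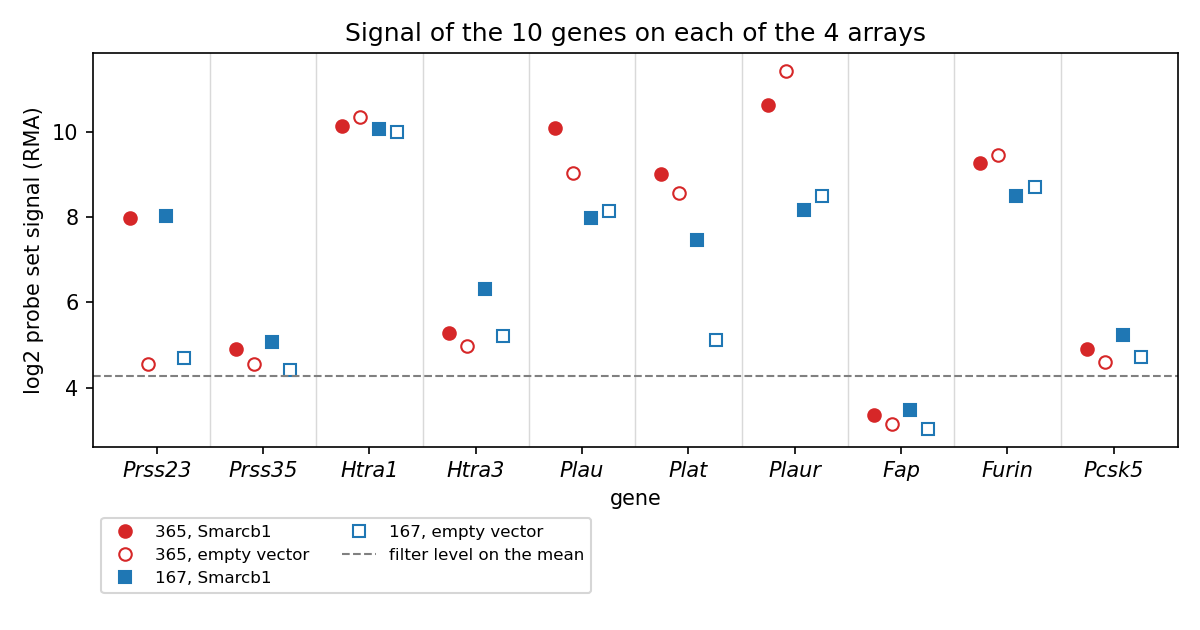
Log2 probe set signal (vertical axis) of the 10 genes on each array, with circles for line 365, squares for line 167, filled symbols for Smarcb1 and open symbols for empty vector. The dashed line is the limit on mean signal (log2 4.27): Prss23 sits near 8 on both Smarcb1 arrays and just above the limit on both empty-vector arrays, while Fap lies under the limit on all 4.

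Prss35, the closest homologue of Prss23 in the group, has lost the catalytic serine and is regarded as an inactive protease. Its log2 signal was 4.91 with Smarcb1 and 4.55 with empty vector in line 365, and 5.07 and 4.40 in line 167. The Smarcb1 arrays were the higher ones in both lines, as for 26.0% of all tested genes, but all 4 signals lay close to the limit on mean signal. The log2 differences were 0.36 in line 365 and 0.67 in line 167, compared with 3.44 and 3.33 for Prss23.

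Htra1, a secreted protease that degrades fibronectin and proteoglycans, had log2 signals of 10.14 with Smarcb1 and 10.34 with empty vector in line 365, and of 10.06 and 9.99 in line 167. The 4 signals lay within log2 0.36 of each other and the vector groups overlapped, with log2 differences of -0.20 in line 365 and 0.07 in line 167. Htra3, a related protease of placenta and stroma, had log2 signals of 5.27 with Smarcb1 and 4.97 with empty vector in line 365, and of 6.32 and 5.20 in line 167. The Htra3 difference was thus log2 0.30 in line 365 and 1.12, or 2.17-fold, in line 167, where the Smarcb1 array was the highest of the 4. Htra3 was thus higher with Smarcb1 in both lines, as were 26.0% of all tested genes.

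Of the plasminogen activation genes Plat, Plau and Plaur, 0 passed the fit for Smarcb1, against 0.0645% of all tested genes. With so small a share a count of 0 is no result about these genes, and it does not show that Smarcb1 left them unchanged. No difference between their responses was tested. Plat, which encodes tPA, had a higher signal with Smarcb1 in line 167, where its log2 signal was 7.47 with Smarcb1 and 5.11 with empty vector. In line 365 it was 8.998 with Smarcb1 and 8.57 with empty vector, so both arrays of line 365 were above both of line 167. The log2 difference was 0.43 (1.34-fold) in line 365 and 2.35 (5.11-fold) in line 167, with ranks of 1451 and 108 among tested genes. The signals of Plat with and without Smarcb1 overlap between the groups because the empty-vector array of line 365 exceeds the Smarcb1 array of line 167.

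Plau, which encodes uPA, had a higher signal with Smarcb1 in line 365 and a slightly lower one in line 167. Its log2 signal was 10.09 with Smarcb1 and 9.04 with empty vector in line 365, and 7.97 with Smarcb1 and 8.15 with empty vector in line 167. The log2 difference was 1.05 (2.06-fold) in line 365 and -0.18 in line 167. Plat and Plau therefore had their larger difference in opposite lines, and neither gap between lines could be tested.

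Plaur, the membrane-anchored receptor of uPA, had a lower signal with Smarcb1 in both lines. Its log2 signal was 10.63 with Smarcb1 and 11.43 with empty vector in line 365, and 8.16 and 8.49 in line 167. The log2 differences of -0.80 in line 365 and -0.34 in line 167 were small beside the gap between the lines, so the vector groups overlapped. Plaur stood at rank 302 from the lowest difference in line 365 and at rank 2753 in line 167.

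Fap, a membrane-bound prolyl peptidase known from activated fibroblasts, had log2 signals of 3.36 with Smarcb1 and 3.14 with empty vector in line 365, and of 3.48 and 3.03 in line 167. All 4 lay below the limit on mean signal, so the gene was not tested and no signal over background can be claimed for it. Among the convertases, Furin, which acts in the Golgi network and at the surface, had log2 signals of 9.27 with Smarcb1 and 9.46 with empty vector in line 365, and of 8.50 and 8.71 in line 167. Its log2 differences, -0.19 in line 365 and -0.21 in line 167, were close to each other and small. Pcsk5, a secreted convertase, had log2 signals of 4.89 with Smarcb1 and 4.59 with empty vector in line 365, and of 5.23 and 4.70 in line 167. The Pcsk5 log2 differences were 0.31 in line 365 and 0.53 in line 167.

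**Figure D2:**
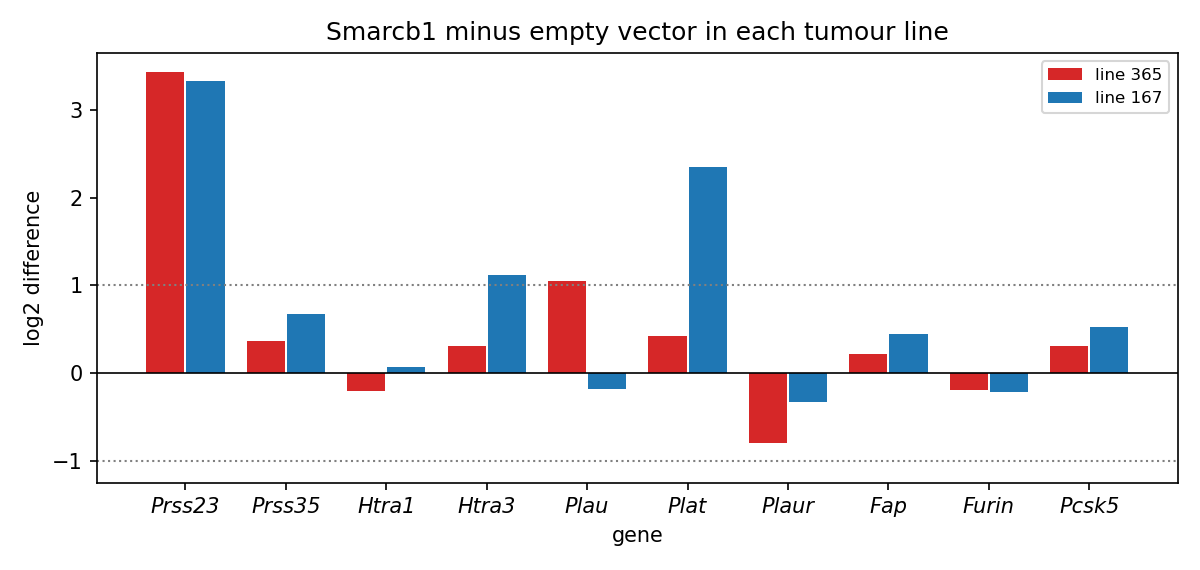
Log2 difference between Smarcb1 and empty vector (vertical axis) for the 10 genes, with red bars for line 365 and blue bars for line 167, 1 array for each line and vector. Dotted lines mark a 2-fold difference: Prss23 passes it in both lines, Plau in line 365, and Htra3 and Plat in line 167.

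Over the 9 tested genes, 5 were higher in both lines, 2 were lower in both and 2 had opposite signs, against 26.0%, 34.1% and 39.8% of all tested genes. At least 2-fold higher were 2 genes in line 365, against 2.84% of all tested genes, and 3 in line 167, against 3.40%. Prss23 was the 1 gene at least 2-fold higher in both lines, against 1.33% of all tested genes. The median log2 difference of the 9 genes was 0.31 in line 365 and 0.53 in line 167, and that of all tested genes was -0.01 and -0.06. The vector contrast entered the choice of the group, so these shares are a description.

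**Figure D3:**
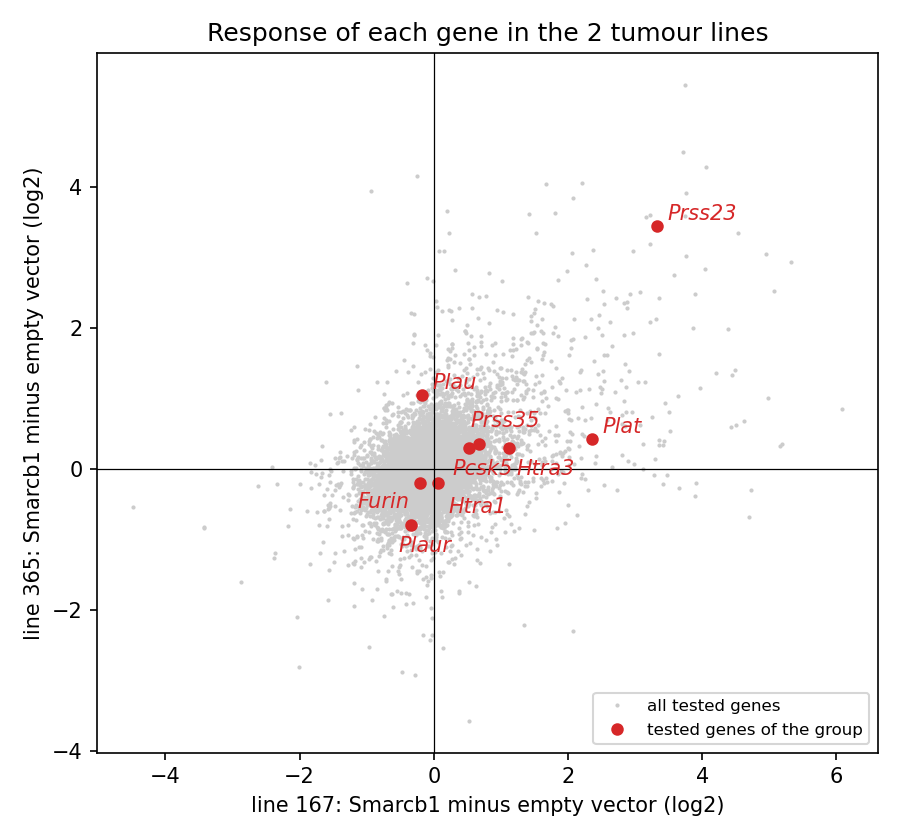
Log2 difference between Smarcb1 and empty vector in line 167 (horizontal axis) and line 365 (vertical axis) for all tested genes (grey) and the 9 tested genes of the group (red). Prss23 lies near the diagonal at 3.33 and 3.44, Plat is displaced to the right at 2.35 and 0.43, and Plau lies above the origin at -0.18 and 1.05.

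Plaur, Plat and Furin were higher in line 365 than in line 167. In the same fit 3 of the 9 tested genes were higher in line 365 than in line 167, against 5.31% of all tested genes, and 0 were lower, against 5.64%. At least 2-fold higher in line 365 under both vectors were 2 genes, Plat and Plaur, against 2.94% of all tested genes. The group was put together with results of these arrays known, so these adjusted p-values are those of the fit over all tested genes and do not support the group as such. In this contrast the 2 arrays of a line, which differ in vector, stand in for replicates of it, and no repeat culture was measured.

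Plaur was 5.54-fold higher in line 365 than in line 167 with Smarcb1 and 7.63-fold higher with empty vector. Its mean log2 difference, 365 minus 167, was 2.70 ± 0.16 (moderated SE), with limma adjusted p = 0.00409. Plat was 2.89-fold higher in line 365 with Smarcb1 and 11.0-fold higher with empty vector, so its gap was the narrower with Smarcb1. Its mean log2 line difference was 2.49 ± 0.47 (moderated SE; limma adjusted p = 0.0416). Furin was 1.70-fold higher with Smarcb1 and 1.68-fold higher with empty vector (mean log2 line difference 0.76 ± 0.14, moderated SE; limma adjusted p = 0.0396). Without the intensity trend in the fit the calls of Plat and Furin ended, at limma adjusted p = 0.0550 and 0.0571.

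Plau did not pass, with a mean log2 line difference of 1.51 ± 0.32 (moderated SE) and limma adjusted p = 0.0508. It was 4.34-fold higher in line 365 with Smarcb1 and 1.86-fold higher with empty vector. Under 5 of 6 alternative settings it passed, and its adjusted p over them ran between 0.0261 and 0.0657. Plaur, Plat and Plau were thus higher in line 365 on each pair of arrays with the same vector, and Plau and Plat differed in which vector showed the wider gap.

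Prss23 showed a mean log2 line difference of -0.09 ± 0.19 (moderated SE), with limma adjusted p = 0.801. Prss35 (-0.01 ± 0.16), Htra1 (0.22 ± 0.13) and Pcsk5 (-0.23 ± 0.16) also had small mean log2 line differences with moderated SE, and their limma adjusted p-values were between 0.330 and 0.983. Htra3 was 2.07-fold lower in line 365 than in line 167 with Smarcb1 and 1.18-fold lower with empty vector (limma adjusted p = 0.171). A p that misses the threshold does not show that the lines were alike in these genes.

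**Figure D4:**
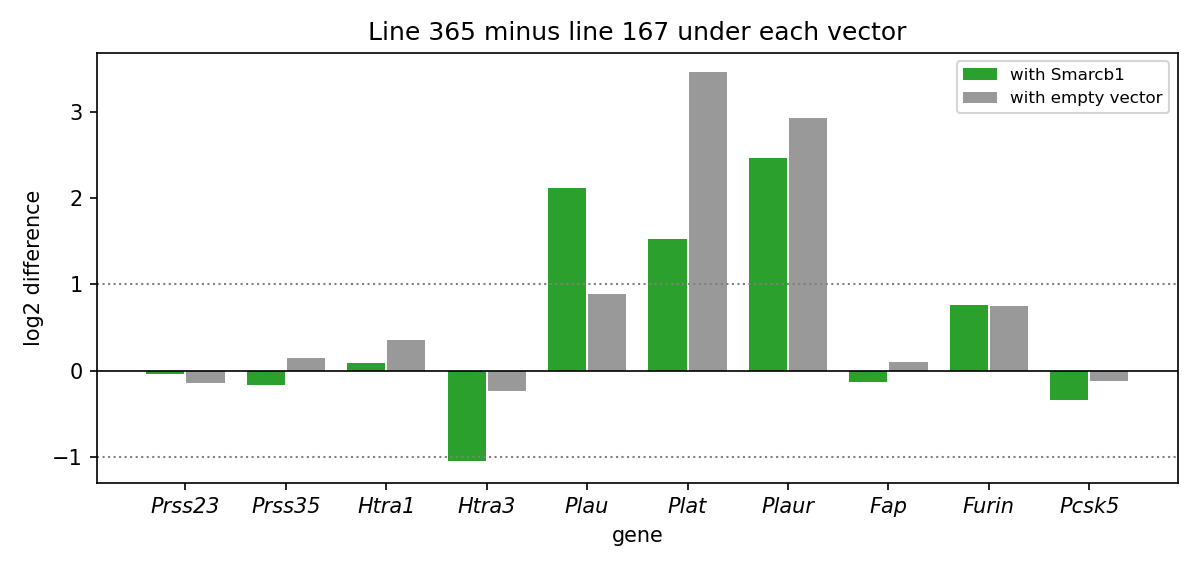
Log2 difference between line 365 and line 167 (vertical axis) for the 10 genes, with green bars for the arrays with Smarcb1 and grey bars for those with empty vector. Plau, Plat and Plaur are higher in line 365 under both vectors, Furin by 0.76 and 0.75, and Prss23 is close to 0 under both.

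Of 6 endothelial markers, 4 had signal above the limit on each array of line 365 and 2 on each array of line 167. Their summed log2 signal was 29.6 with Smarcb1 and 30.6 with empty vector in line 365, against 25.4 and 24.4 in line 167. The endothelial cadherin gene Cdh5 had log2 signals of 8.29 and 9.06 in line 365 (Smarcb1, then empty vector) and of 3.64 and 3.78 in line 167, below the limit. It passed the limit on mean signal through line 365 alone. Cdh5 was the 1 of 3 tested endothelial markers called between the lines, as higher in line 365, against 5.31% of all tested genes. Nothing is read from that call, since line 365 alone brought Cdh5 into the test, and the size of its line difference is uncertain. Without Cdh5, singled out after its values were seen, the summed log2 signal was 21.3 with Smarcb1 and 21.6 with empty vector in line 365, against 21.7 and 20.6 in line 167. Pecam1 was between 3.95 and 4.35, and Tek and Emcn lay below the limit on all 4 arrays. Of 3 tested leukocyte, 6 epithelial and 2 mast cell or neutrophil markers, 0 were called between the lines by limma. Over all tested genes 5.31% were called higher in line 365 and 5.64% lower. Of the same markers 0 had an unadjusted limma p below 0.05 for the line, against 4294 of all 13956 tested genes. Among the 10 mesenchymal markers 4 were lower in line 365 in the limma fit, against 5.64% of all tested genes, and 1 was higher, against 5.31%. Their summed log2 signal was 81.7 and 77.1 in line 365 (Smarcb1, then empty vector), against 100.2 and 88.4 in line 167. The part of these markers in the line differences of Plaur, Plat and Furin was not tested. In such samples more cells of a type and more RNA per cell cannot be told apart.

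Genes that act with these proteases were taken from lists of names. With Smarcb1, 0 of 16 tested genes for plasminogen binding, uPA receptor partners and clearance passed limma's test in either direction. Over all tested genes 0.0645% passed as higher and 0 as lower, so a count of 0 is no result about a list, here and below. Of the 16 genes 6 had an unadjusted p below 0.05, against 11.6% of all tested genes. The integrin gene Itgb3, whose product pairs with the alpha V chain to bind vitronectin, had log2 differences of 2.67 in line 365 and 1.02 in line 167 (limma adjusted p = 0.251). Itga3, an integrin chain that binds laminin and the uPA receptor, had 1.85 and 1.19 (limma adjusted p = 0.122). The fibronectin receptor chain Itga5 had 0.44 and 1.24, and Vldlr, an endocytic receptor for protease and inhibitor complexes, 0.81 and 1.11. The median log2 difference of this list was 0.12 in line 365 and 0.13 in line 167.

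Between the lines, 1 of the 16 genes of that list was higher in line 365, against 5.31% of all tested genes, and 3 were lower, against 5.64%. Itga3 was 3.18-fold higher in line 365 as a mean over vectors (limma adjusted p = 0.0189). The collagen receptor gene Mrc2, whose product associates with the uPA receptor, was 9.41-fold lower in line 365 (limma adjusted p = 0.00678). Itgb5, an alpha V partner, was 4.26-fold lower and Igf2r, which binds uPA receptor and plasminogen, 1.95-fold lower (limma adjusted p = 0.0205 and 0.0416). Plaur was thus higher and its partner Mrc2 lower in line 365. Plasminogen itself (Plg), looked up after its values were seen, had log2 signals between 3.79 and 3.90 on the 4 arrays, below the limit.

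Protease-activated receptors and tissue factor were measured by 5 tested genes. With Smarcb1, 0 passed limma's test, against 0.0645% of all tested genes, and 2 had an unadjusted p below 0.05, against 11.6%. Tissue factor (F3), the cell surface starter of coagulation, had log2 differences of 1.49 in line 365 and 2.85 in line 167 (limma adjusted p = 0.145), although its empty-vector signals, 4.51 in line 365 and 3.97 in line 167, were near or under the limit. The thrombin receptor gene F2r had log2 differences of 2.26 and 0.94 (limma adjusted p = 0.214). Procr, the receptor of protein C, was 28.2-fold higher in line 365 than in line 167 (mean log2 line difference 4.82 ± 0.15, moderated SE; limma adjusted p = 0.00223).

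The list of serine protease inhibitors and their relatives held 13 tested genes. With Smarcb1, 0 passed limma's test, against 0.0645% of all tested genes, and 0 had an unadjusted p below 0.05, against 11.6%. Serpinb8, an intracellular serpin that inhibits furin, had log2 differences of 0.14 in line 365 and 1.57 in line 167, and the complement C1 inhibitor gene Serping1 -0.16 and 1.47. Serpinb8 was below the limit on 3 of the 4 arrays and Serping1 on 2, in both cases with the empty-vector array of line 167 among them, so the size of these differences is uncertain. Serpinb9, an inhibitor of granzyme B, had 1.14 and 0.27, and Serpini1, the neural tPA inhibitor neuroserpin, 0.11 and -0.90. Between the lines 3 genes of this list were lower in line 365 in the limma fit, against 5.64% of all tested genes, and 0 were higher, against 5.31%. Of the 3, only Tfpi encodes an inhibitor of serine proteases. Serpinf1, a secreted serpin that does not inhibit proteases, was 4.57-fold lower (limma adjusted p = 0.0326), the tissue factor pathway inhibitor gene Tfpi 3.24-fold lower (limma adjusted p = 0.0360), and the gene Reck, whose membrane-anchored product inhibits metalloproteinases, 1.97-fold lower (limma adjusted p = 0.0478).

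Other secreted or surface serine proteases numbered 27 tested genes. With Smarcb1, 0 passed limma's test, against 0.0645% of all tested genes, and 2 had an unadjusted p below 0.05, against 11.6%. The kallikrein-related gene Klk8 had log2 differences of -1.28 in line 365 and -0.51 in line 167, and the complement protease gene C1ra -1.66 and 0.63. The membrane-linked or secreted protease genes Prss22 (0.34 and 0.68) and Masp1 (0.69 and 0.19) had positive differences in both lines. Klk10, another kallikrein-related gene, was 3.71-fold higher in line 365 than in line 167 (limma adjusted p = 0.0162). The 27 genes had median log2 differences of 0.04 in line 365 and 0.06 in line 167.

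The other proprotein convertases and the relatives of Fap had small log2 differences. Of the 4 tested convertase genes 0 passed limma's test in either contrast. The shares of all tested genes were 0.0645% for Smarcb1, and 5.31% higher and 5.64% lower in line 365. For Smarcb1 1 of the convertase genes had an unadjusted p below 0.05, against 11.6% of all tested genes. Mbtps1, the site 1 protease, had log2 differences of 0.43 in line 365 and 0.24 in line 167, Pcsk6 0.29 and -0.03, Pcsk7 -0.01 and 0.27, and Pcsk4 -0.06 and 0.09. Of the 4 tested prolyl peptidase genes, Dpp8, Dpp9, Prep and Prepl, 0 passed limma's test in either contrast, beside the same shares. For Smarcb1 0 of them had an unadjusted p below 0.05, against 11.6% of all tested genes. Their log2 differences lay between -0.15 and 0.27 in the 2 lines.

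Among 19 tested growth factors and convertase substrates 0 passed limma's test for Smarcb1, against 0.0645% of all tested genes, and 6 had an unadjusted p below 0.05, against 11.6%. Vegfc, a lymphatic growth factor cut by furin-like convertases, had log2 differences of 1.54 in line 365 and 1.75 in line 167 (limma adjusted p = 0.0694). Mmp14, a membrane metalloproteinase activated by furin, had 1.09 and 1.10 (limma adjusted p = 0.0865), Tgfb3 0.28 and 2.02, and the TGF-beta binding protein gene Ltbp1 1.88 and 0.70. Between the lines, 3 of these genes were higher in line 365, against 5.31% of all tested genes, and 1 was lower, against 5.64%. Met, the receptor of hepatocyte growth factor, was 4.52-fold higher in line 365 (limma adjusted p = 0.00401) and Mmp2 4.87-fold higher (0.0075 by the same test), while Mmp14 was 1.74-fold lower (0.0285). Hgf itself, also counted among the 3, was 2.26-fold higher. Hgf lay below the limit on both arrays of line 167 and passed the limit on mean signal through line 365 alone. Nothing is read from its call, and the size of its line difference is uncertain.

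The genes whose pattern over the 4 arrays was most like that of Prss23 were found by the Euclidean distance between log2 signals centred on each gene's own mean. Gda, a guanine deaminase, was the nearest (distance 0.16), with log2 differences of 3.57 in line 365 and 3.16 in line 167. Its empty-vector signal in line 365, log2 4.16, was below the limit, so the size of that difference is uncertain. Phldb2 (0.59), Nrp1 (0.61), Efnb2 (0.65) and Plpp3 (0.76) followed, and their log2 differences ran between 2.37 and 3.91. Nearest to Plat were Fabp5 (0.59), Hes1 (0.63) and Pcdh19 (0.74), each higher in line 365 and with a larger Smarcb1 difference in line 167. Nearest to Plaur were Scarf1 (0.10), Txnrd1 (0.10) and Dkk1 (0.28), each lower with Smarcb1 in both lines and higher in line 365. With 4 arrays such likeness is a description only.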

How the data were processed

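Total RNA of 4 cultures was measured on whole-transcript arrays after biotin labelling, per the labels' protocols. The authors deposited log2 signals per probe set. According to the submitters' processing notes these come from RMA, run in Affymetrix Expression Console, a method that removes background, equalises the distributions of the arrays by quantiles and summarises probes, so a change of total RNA per cell leaves no trace. Its version and settings, and a genome build, were not given in the sources used here.

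The platform annotation gives 1 gene symbol for 21789 of 35556 probe sets and several for 1621, and 12146 stay unnamed here. Entrez identifiers of 21698 were found in RefSeq (GRCm38.p6) and 0 symbols changed. The probe set with the highest mean was kept for each gene, and genes under the 30th percentile of these means were not tested.

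limma 3.58.1 (R 4.3.3; lmFit, eBayes with intensity trend) fitted a line and a vector term to 13956 genes. The tests are two-sided, with Benjamini-Hochberg adjustment over these genes and a threshold of 0.05. The residual has 1 degree of freedom, and eBayes added 3.75, so the moderated SE borrows from all genes. Arrays pair by cell line, and both arrays of a line departed in the same way from the vector means (r = 0.770 across genes). p-values measure only the spread between these samples, and the number of arrays limits the precision. On data simulated with independent noise for each gene the fit made somewhat more false calls than the threshold allows. Those data held no correlation between genes and no difference between line responses beyond noise, so they do not give the error rate here.

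The members and lists were chosen with earlier results of these data known. Beyond the 10 genes, those named from each list had passed the test in either contrast or were among the 4 with the largest mean vector difference. For likeness the rule took 5 genes for Prss23 and 3 each for Plat and Plaur, passing over predicted genes and olfactory or vomeronasal receptors.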

Additional observations from a re-analysis of the deposited data

Results flagged for a closer look

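Plau had log2 differences, Smarcb1 minus empty vector, of 1.05 in line 365 and -0.18 in line 167, so its only array pair in each line pointed in opposite directions. The response of line 365 exceeded that of line 167 by log2 1.23. Htra1 had differences of -0.20 and 0.07, with a gap between the responses of -0.27. Neither gap was tested, since each line has 1 array for each vector, and 39.8% of all tested genes had opposite signs in the lines.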

How the results depend on the processing

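The number of genes past the threshold for Smarcb1, 9 in the reported fit, changed to 68 when no gene was filtered, 101 when the filter was set to the 50th percentile, 48 under quantile normalization, 49 under cyclic loess and 19 when all probe sets of a gene were averaged. With no replicate block (the cell line dropped from the model) limma called 0 genes and 450 had an unadjusted p under 0.05, and the adjusted p of Prss23 was 0.451. The Prss23 difference ran between log2 3.39 and 3.41 over these settings. Of 51 line differences recomputed for the group, 43 kept their direction and side of the threshold. Plau gained a call under 5 settings, Plat and Furin lost theirs without the intensity trend, and Prss35 reversed after cyclic loess, at log2 0.0013. The count of group genes at least 2-fold higher in both lines, 1, became a count for a single line of 2 to 3 when either line was left out. No test could be had with a line left out, and the line difference cannot be had without the line term, so these were not run. Causes were not tested. Signals near the limit, as for Prss35, Pcsk5 and both empty-vector arrays of Prss23, leave the size of a difference uncertain.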
